A study of Mus musculus with 12 samples.

Results

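The collagen genes of the mouse were followed in NIH3T3 cells, an immortalised mouse embryonic fibroblast line, after knockdown of UBF (gene Ubtf), the architectural transcription factor of the ribosomal RNA genes. Members were all genes on the array with a single annotated symbol made of Col, a number, the letter a and a number, with 1 value per gene. This rule found 44 of 19938 genes. They comprised 11 fibrillar, 9 network-forming, 6 beaded-filament, 9 FACIT (fibril-associated), 4 transmembrane and 2 multiplexin collagens and 3 that belong to none of these classes. The values were the deposited log2 expression values, so that a difference of 1 is a 2-fold difference.

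Total RNA was profiled on 12 single-colour Affymetrix arrays, 3 for each of 4 groups. The sirUBF oligo #1 group (oligo 1) and the sirUBF oligo #2 group (oligo 2) each received 1 of 2 different siRNAs against UBF at 40 nM. The sirEGFP group received an siRNA against EGFP, a variant of a jellyfish fluorescent protein, at the same dose, and is the siRNA control. The Mock group received transfection reagent without siRNA, and all 4 groups were collected after 48 hours. The submitters' design text calls the 3 arrays of a group biological replicates. All cells were of 1 cultured line, which limits what the values say about collagen in tissues.

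Collagens are secreted proteins whose chains wind into a rope-like helix. Fibrillar collagens such as types I, III and V pack into the banded fibrils that give connective tissue its tensile strength, and fibroblasts are their main source. Network collagens such as type IV form the sheet of basement membranes, type VI forms beaded filaments close to the cell surface, and FACITs sit on the surface of fibrils. Each type is assembled from the products of its own alpha-chain genes, so that several genes supply 1 protein.

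Ubtf measured 7.998, 7.74 and 7.64 with oligo 1 and 7.90, 7.83 and 7.49 with oligo 2, against 8.68, 8.31 and 8.04 in sirEGFP cells and 8.54, 8.63 and 8.41 in Mock cells. All 6 knockdown arrays lay below all 6 control arrays, with a mean difference of -0.67 (exact permutation test over the 924 splits of 12 arrays, two-sided, p = 0.00216). In limma's test Ubtf passed against Mock with oligo 1 (-0.74, adjusted p = 0.0252) and with oligo 2 (-0.79, adjusted p = 0.0146). Against sirEGFP it did not pass with oligo 1 (-0.55, limma adjusted p = 0.107), with oligo 2 (-0.61, limma adjusted p = 0.0771) or for their mean (-0.58, limma adjusted p = 0.0526). The 9 fibroblast markers averaged 8.44 to 8.81 with oligo 1, 8.89 to 9.11 with oligo 2, 8.45 to 8.60 in sirEGFP cells and 8.58 to 8.68 in Mock cells, so that every oligo 2 array was above every other array. All 5 osteoblast markers and 6 of 7 chondrocyte markers measured lay below the median of all genes. The main axis of spread within groups held 41.5% of the within-group variance, and was spanned by array 1 of oligo 1 (-0.50) and array 1 of sirEGFP (-0.44) against array 2 of oligo 1 (0.54). Each collagen result that passed its test was also computed without these 3 extreme arrays. In bulk RNA, fewer cells of a type and less RNA per cell cannot be told apart.

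Most collagen genes showed no detectable difference after UBF knockdown. With oligo 1 against sirEGFP 1 of 44 rose and 0 fell in limma's moderated test at an adjusted p under 0.05, where 2.47% of all genes were called. With oligo 2 against sirEGFP 0 of 44 were called, where 2.26% of all genes were, and the limma test without adjustment gave 3 higher and 2 lower members at p under 0.05, where 7.49% of all genes were higher and 5.38% lower. The same unadjusted test gave 3 higher and 0 lower members with oligo 1, where 7.41% and 5.94% of all genes were, and 4 higher and 1 lower for the mean of both siRNAs, where 7.76% and 5.48% were. For the mean of both siRNAs against sirEGFP 1 of 44 rose and 0 fell, where 1.93% of all genes were called. The gene that rose in both was Col6a3. With the replicate number as a block, 2 were called with oligo 2 against sirEGFP, Col5a2 and Col8a1.

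The precision of the arrays bounded the changes in measured signal that could have been missed. The 95% interval of the change lay within 1.5-fold in either direction for 38 members with oligo 1, for 39 with oligo 2 and for 40 with the mean of both siRNAs, and within 2-fold for all 44 in each comparison. The median collagen change was 0.10 with oligo 1 and -0.030 with oligo 2, where the median over all genes was 0.022 and -0.0077. For the mean of both siRNAs it was 0.023, where the median over all genes was 0.0077. Of the 44 probe sets, 42 were brighter than the dimmest 25% of genes, and the exceptions were Col12a1 and Col28a1. Only 27 lay above the median of all genes. Without a detection call, a narrow interval at a dim probe set need not bound the change in its RNA.

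**Figure D1:**
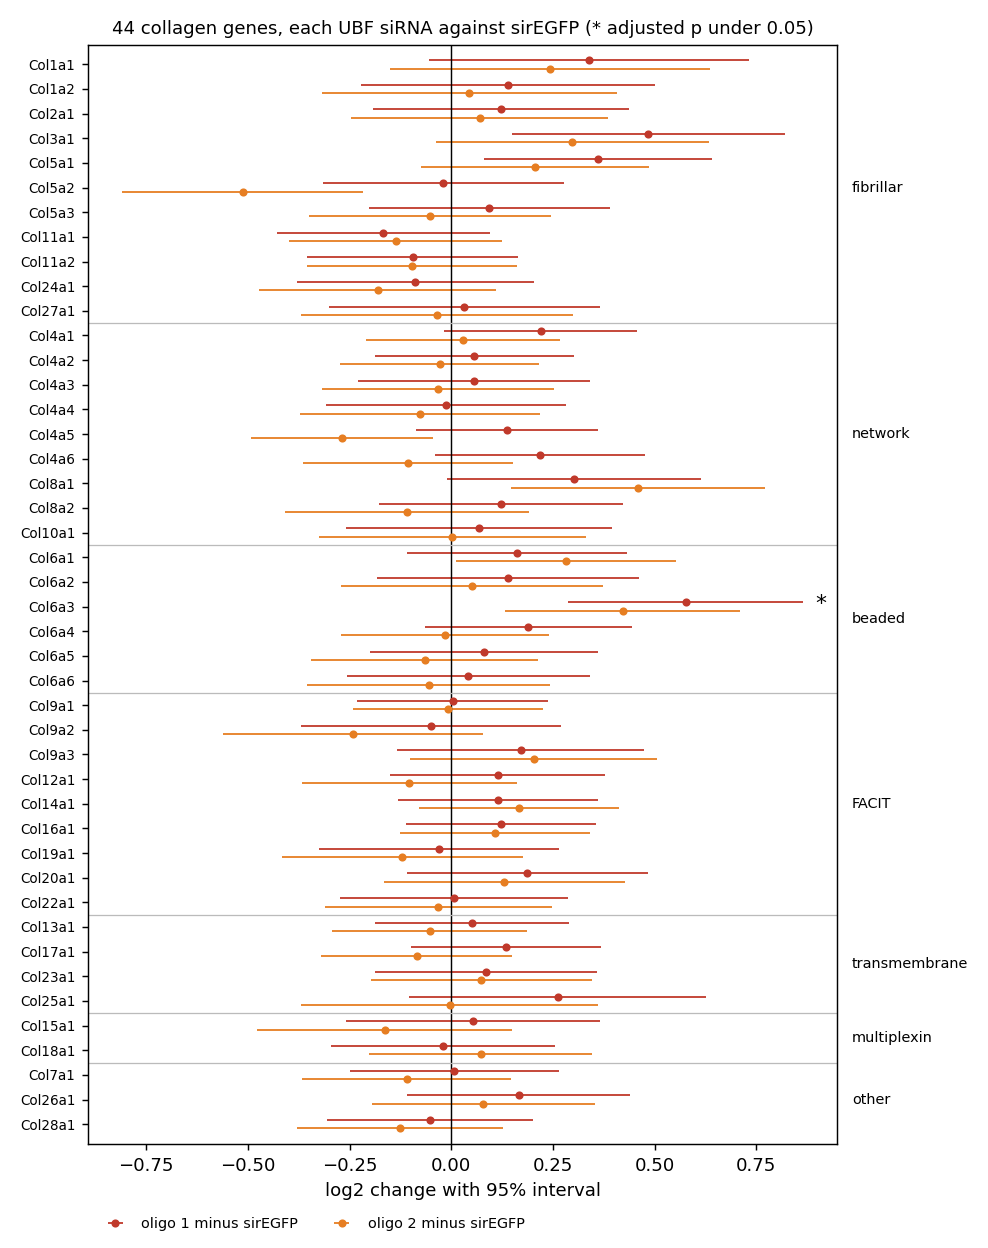
Change in log2 expression (x axis) of the 44 collagen genes (y axis, by class) with each UBF siRNA against sirEGFP, as points with 95% intervals from limma. Only Col6a3 with oligo 1 carries the asterisk for an adjusted p under 0.05, and Col5a2 with oligo 2 lies lowest at -0.51.

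Type VI collagen, the beaded-filament collagen that ties cells to the surrounding matrix, is built in fibroblasts from the products of Col6a1, Col6a2 and Col6a3. Col6a3, which encodes the largest of these chains, measured 7.29, 7.08 and 7.52 with oligo 1, 6.999, 7.20 and 7.23 with oligo 2, 6.86, 6.54 and 6.76 in sirEGFP cells and 6.996, 6.91 and 7.09 in Mock cells. All 6 knockdown arrays lay above all 3 sirEGFP arrays, but the arrays of each siRNA overlapped the Mock arrays. Against sirEGFP, Col6a3 rose by 0.58 ± 0.14 (SE, n = 3 each) with oligo 1, or 1.49-fold (limma, adjusted p = 0.0363). With oligo 2 the difference was 0.42 ± 0.14 and did not pass (limma, adjusted p = 0.142). The mean over both siRNAs rose by 0.50 ± 0.12, or 1.41-fold (limma, adjusted p = 0.0423).

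The size of this change depended on the control. Col6a3 averaged 6.72 ± 0.16 in sirEGFP cells and 6.998 ± 0.088 in Mock cells (SD, n = 3 each), and all 3 sirEGFP arrays lay below all 3 Mock arrays. That difference of -0.28 did not pass (limma, adjusted p = 0.812). Against Mock, Col6a3 differed by 0.30 with oligo 1 (limma, adjusted p = 0.353) and by 0.14 with oligo 2 (limma, adjusted p = 0.743). Without the 3 extreme arrays the mean rise against sirEGFP was 0.68 (limma, adjusted p = 0.0155) and that with oligo 1, then resting on 1 oligo 1 array assumed to vary like the others, was 0.87 (limma, adjusted p = 0.0334). The mean rise did not pass without array 2 of sirEGFP, where it was 0.41 (limma, adjusted p = 0.276). It also missed the threshold without array 3 of sirEGFP, any 1 Mock array, array 1 or 3 of oligo 1, or any 1 oligo 2 array, with differences of 0.44 to 0.53 and limma adjusted p between 0.0524 and 0.153. The rise with oligo 1 missed it without Mock array 1, array 2 or 3 of sirEGFP, array 1 or 3 of oligo 1 or array 3 of oligo 2, with differences of 0.46 to 0.59 and limma adjusted p between 0.0523 and 0.191.

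The partner chains of type VI collagen did not pass limma's adjusted test in any comparison. Col6a1 measured 7.05, 6.70 and 6.73 with oligo 1 and 6.90, 6.92 and 7.02 with oligo 2, against 6.84, 6.60 and 6.55 in sirEGFP cells and 6.67, 6.86 and 6.71 in Mock cells. Col6a2, the neighbour of Col6a1 on chromosome 10, measured 6.77, 6.10 and 6.43 with oligo 1, 6.36, 6.32 and 6.36 with oligo 2, 6.50, 6.20 and 6.19 in sirEGFP cells and 6.16, 6.19 and 6.01 in Mock cells. All 3 oligo 2 arrays of Col6a1 lay above all 6 control arrays, while its oligo 1 arrays overlapped them. For Col6a1 the oligo 2 difference from sirEGFP was 0.28 (limma, adjusted p = 0.360). For Col6a2 the oligo 2 arrays lay above all 3 Mock arrays but overlapped the sirEGFP arrays, and the oligo 1 arrays overlapped both controls. Over both siRNAs the mean differences from sirEGFP were 0.22 for Col6a1 (limma, adjusted p = 0.413) and 0.094 for Col6a2 (limma, adjusted p = 0.862). The other three type VI genes, Col6a4, Col6a5 and Col6a6, differed by between -0.0071 and 0.087 in the same comparison.

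The sequence upstream of Col6a3 is shown because this gene passed against sirEGFP in the fit without a block. It is the minus strand of chr1:90844022-90844221 (RefSeq, GRCm38.p6), the 200 bases that end 51 bases before the annotated start, in which capitals would mark a CCAAT box (CCAAT) or a GC box (GGGCGG) on either strand.
Col6a3: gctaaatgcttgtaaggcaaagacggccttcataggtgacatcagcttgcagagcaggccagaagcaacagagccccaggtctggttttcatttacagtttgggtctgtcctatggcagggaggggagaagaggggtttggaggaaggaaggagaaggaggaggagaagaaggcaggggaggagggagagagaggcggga
Neither motif occurred in this window. Among 27025 mouse promoters of the same length 28.9% held a CCAAT box and 24.5% a GC box, and among the 35 collagen promoters available 10 held a CCAAT box and 17 a GC box. The median GC content was 57.5% for the collagen promoters and 51.5% for all promoters. A motif match describes letters and is not evidence of binding.

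**Figure D2:**
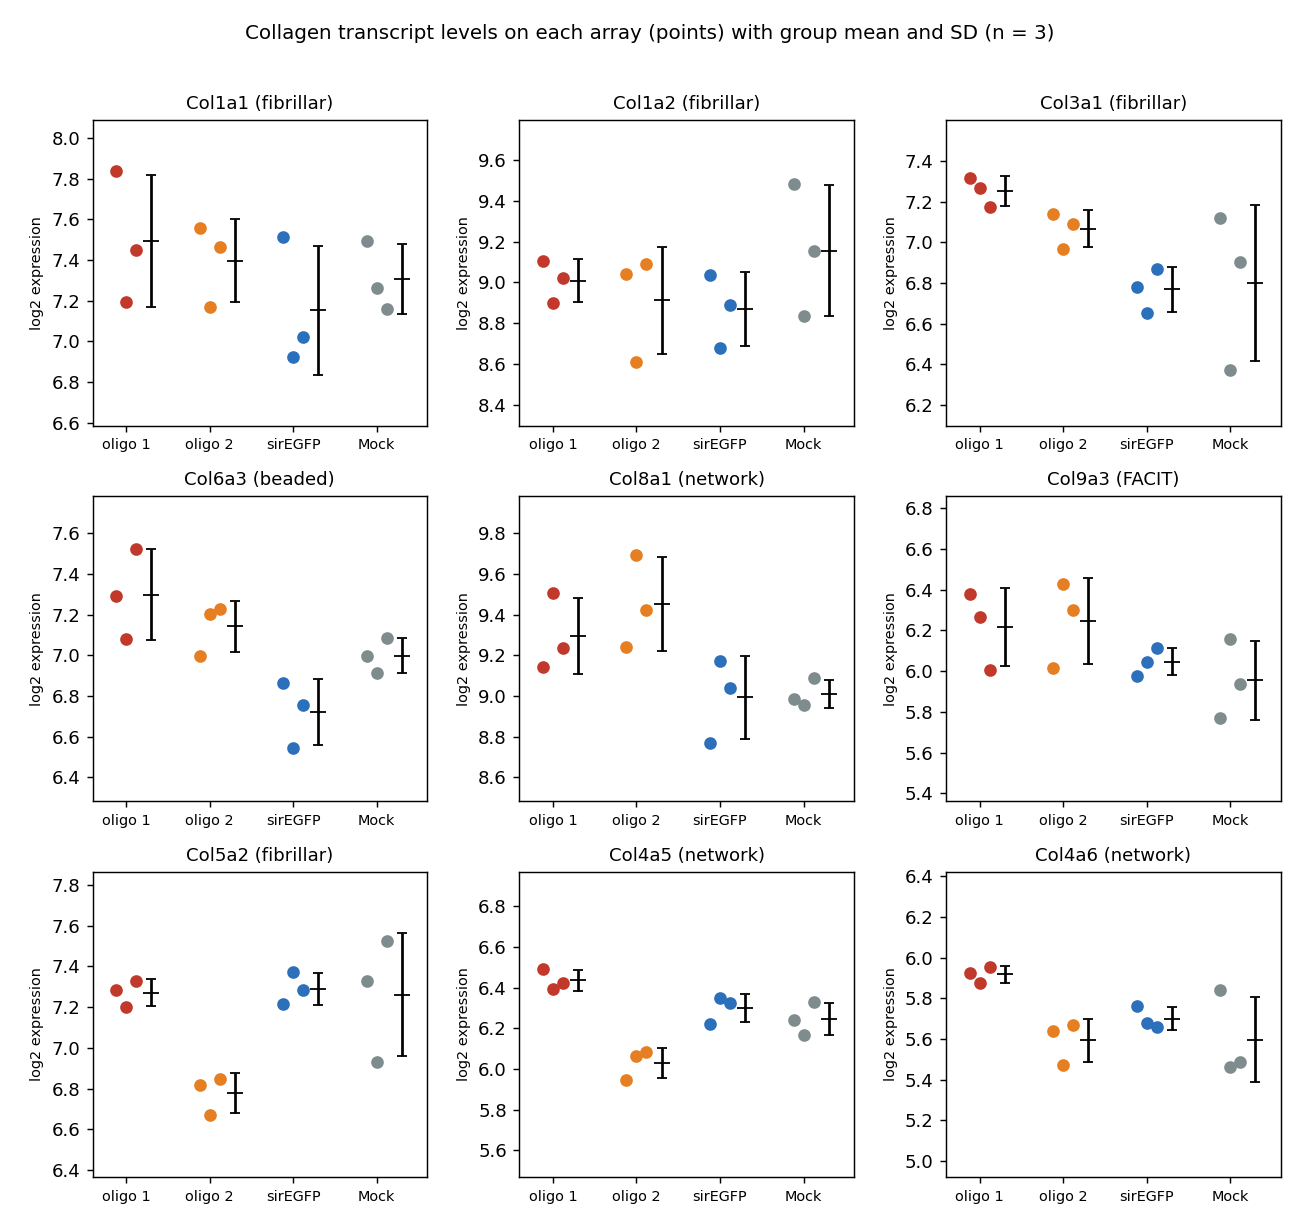
Log2 expression (y axis) on each array (points) with group mean and SD (n = 3) for selected collagen genes, each panel spanning 1.5 log2 units. Col6a3 lies highest in both knockdown groups and lowest in sirEGFP cells, and Col5a2 lies lowest with oligo 2.

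In limma's test without the replicate block 0 of 11 fibrillar collagens were called with either siRNA or their mean against sirEGFP. Against Mock 0 were called as well. With the block Col5a2 passed with oligo 2 against sirEGFP and against Mock, as given below. The unadjusted limma test against sirEGFP gave 2 higher and 0 lower fibrillar genes with oligo 1, and 0 higher and 1 lower with oligo 2. Col1a1 and Col1a2 encode the chains of type I collagen, the main fibril protein of skin, bone and tendon. Col1a1 measured 7.84, 7.19 and 7.45 with oligo 1 and 7.56, 7.17 and 7.46 with oligo 2, against 7.51, 6.92 and 7.02 in sirEGFP cells and 7.49, 7.26 and 7.16 in Mock cells. Col1a2 measured 9.11, 8.90 and 9.02 with oligo 1 and 9.04, 8.61 and 9.09 with oligo 2, against 9.04, 8.68 and 8.89 in sirEGFP cells and 9.48, 8.84 and 9.15 in Mock cells. The ranges of the groups overlapped for both. The mean difference against sirEGFP was 0.29 ± 0.16 for Col1a1 (limma, adjusted p = 0.485) and 0.092 for Col1a2 (limma, adjusted p = 0.888).

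Col3a1, which encodes the collagen of thin reticular fibres, measured 7.32, 7.27 and 7.17 with oligo 1 and 7.14, 6.97 and 7.09 with oligo 2, against 6.78, 6.65 and 6.87 in sirEGFP cells and 7.12, 6.37 and 6.90 in Mock cells. All knockdown arrays lay above the sirEGFP arrays, while 1 Mock array lay inside the oligo 2 range. The mean difference was 0.39 ± 0.14, with a 95% interval of 0.10 to 0.68, and did not pass (limma, adjusted p = 0.193). Col5a1, whose product starts fibril assembly with type I collagen, had a mean difference of 0.28 (limma, adjusted p = 0.278). Across the array, 2.91% of all genes had all 6 knockdown arrays above all 3 sirEGFP arrays, and 3 collagens did: Col3a1, Col5a1 and Col6a3. The opposite held for 0 collagens and 2.11% of all genes. Taken siRNA by siRNA, 6 collagens had all oligo 1 arrays above all sirEGFP arrays and 0 had them below, where 8.33% and 7.18% of all genes did. With oligo 2 these were 6 above and 2 below, where 9.83% and 8.62% of all genes were. No collagen had all 6 knockdown arrays above or below all 6 control arrays, where 1.43% of all genes were above and 0.692% below.

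Col5a2, which encodes the second chain of type V collagen, stood apart with oligo 2. It measured 6.82, 6.67 and 6.85 with oligo 2, against 7.28, 7.20 and 7.33 with oligo 1, 7.21, 7.37 and 7.29 in sirEGFP cells and 7.33, 6.93 and 7.52 in Mock cells. All 3 oligo 2 arrays lay below the other 9, as they did for 1.80% of all genes, and Col4a5 was the other collagen with this pattern. The oligo 2 value differed from sirEGFP by -0.51 ± 0.14 (limma, adjusted p = 0.0752), and with the replicate number as a block the adjusted p was 0.0395 in limma. The difference from oligo 1 was -0.49 (limma, adjusted p = 0.0677, and 0.0375 with the replicate block). Without array 2 of Mock the differences passed against sirEGFP (-0.51, limma adjusted p = 0.0319) and oligo 1 (-0.49, limma adjusted p = 0.0273), and without array 3 of Mock that against oligo 1 did (limma, adjusted p = 0.0471). Against Mock the oligo 2 difference in the full fit was -0.48 (limma, adjusted p = 0.0677). This difference passed in 3 of 20 alternative settings, the replicate block among them, with 0.0202 as the lowest limma adjusted p. Against the mean of Mock and sirEGFP, a control chosen after seeing the data, it was -0.50 (limma, adjusted p = 0.0266). With oligo 1 the difference from sirEGFP was -0.019 (limma, adjusted p = 0.981). Col3a1 is its neighbour on chromosome 1, with no other protein-coding gene between them, and with oligo 2 it differed from sirEGFP by 0.30 (limma, adjusted p = 0.472).

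The remaining fibrillar genes, which include the cartilage collagens Col2a1, Col11a1 and Col11a2, differed by between -0.15 and 0.096 over both siRNAs against sirEGFP. Col11a1 measured between 5.38 and 5.80 over the 12 arrays, and Col2a1 between 5.81 and 6.33.

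Of the network collagens, Col8a1 had the largest difference from sirEGFP. It encodes a chain of the short-chain type VIII collagen of vessel walls and of the membrane beneath the corneal endothelium. Col8a1 measured 9.14, 9.51 and 9.24 with oligo 1 and 9.24, 9.69 and 9.42 with oligo 2, against 8.77, 9.17 and 9.04 in sirEGFP cells and 8.99, 8.95 and 9.09 in Mock cells. The oligo 2 arrays lay above all 6 control arrays, while 1 oligo 1 array lay below the highest sirEGFP array. The mean difference from sirEGFP was 0.38 ± 0.13, or 1.30-fold, and did not pass (limma, adjusted p = 0.168). With oligo 2 alone it was 0.46 ± 0.15 (limma, adjusted p = 0.138, and 0.0474 with the replicate block). The 6 knockdown arrays exceeded the 6 control arrays by 0.37 on average (exact permutation test, two-sided, p = 0.00433, not adjusted for the number of genes). The same exact test gave p = 0.00649 for Col3a1, p = 0.00866 for Col6a3 and p = 0.0108 for Col4a1, again with no adjustment. With that of Col8a1 these were the smallest among the 44 collagens, and no share of all genes was computed. The test pools both siRNAs and both controls. Col4a1 averaged 6.39 with oligo 1 and 6.20 with oligo 2, against 6.17 in sirEGFP cells and 6.01 in Mock cells.

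The sequence upstream of Col8a1 is shown because it held 3 GC boxes, in capitals, where 17 of 35 collagen promoters held any. It is the minus strand of chr16:57754788-57754987 (RefSeq, GRCm38.p6).
Col8a1: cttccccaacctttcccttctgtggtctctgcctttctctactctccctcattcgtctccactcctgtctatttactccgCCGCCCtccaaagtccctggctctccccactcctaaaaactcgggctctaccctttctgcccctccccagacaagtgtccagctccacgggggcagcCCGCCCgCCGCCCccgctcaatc

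Type IV collagen forms the sheet of basement membranes, and its 6 genes lie as 3 adjacent pairs. Col4a1 and Col4a2, which encode the widespread form, did not pass against either control. Col4a1 measured 6.54, 6.26 and 6.37 with oligo 1 and 6.15, 6.25 and 6.19 with oligo 2, against 6.11, 6.19 and 6.21 in sirEGFP cells and 6.10, 6.03 and 5.91 in Mock cells. All 3 oligo 1 arrays lay above the other 9, as they did for 1.89% of all genes, and Col3a1, Col4a5 and Col4a6 were the other collagens with this pattern. Against Mock the oligo 1 difference of Col4a1 was 0.38 (limma, adjusted p = 0.0974). Against Mock 0 of 44 collagens were called with oligo 1, where 2.75% of all genes were called, and the limma test gave 7 higher and 0 lower members at an unadjusted p under 0.05, where 7.93% of all genes were higher and 5.27% lower. With oligo 2 against Mock 0 were called in the fit without the replicate block, where 4.25% of all genes were. The unadjusted limma test gave 1 higher and 1 lower member, where 9.50% of all genes were higher and 5.68% lower.

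The siRNAs differed from each other at Col4a5, and with the replicate number as a block at Col5a2 as well. Col4a5 encodes a chain of the basement membranes of kidney, cochlea and eye. It was lower with oligo 2 than with oligo 1, and was the 1 of 44 collagens called without the block, where 3.67% of all genes were. With the block 2 of 44 were called. Col4a5 measured 5.95, 6.06 and 6.09 with oligo 2, against 6.49, 6.39 and 6.42 with oligo 1, 6.22, 6.35 and 6.33 in sirEGFP cells and 6.24, 6.17 and 6.33 in Mock cells. The oligo 2 arrays lay below and the oligo 1 arrays above all 6 control arrays. The difference of -0.40 ± 0.10 amounted to a change of -24.4% (limma, adjusted p = 0.0453). Against sirEGFP neither siRNA passed, with -0.27 for oligo 2 (limma, adjusted p = 0.265) and 0.14 for oligo 1 (limma, adjusted p = 0.672). Without the 3 extreme arrays, where oligo 1 has 1 array left, the difference between the siRNAs was -0.39 and did not pass (limma, adjusted p = 0.357). Leaving out any single array other than array 1 of sirEGFP also ended the call, with differences of -0.36 to -0.43 and limma adjusted p between 0.0526 and 0.168.

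Col4a6, which encodes a chain found in the basement membranes of smooth muscle and skin, lies beside Col4a5 on the X chromosome and is transcribed away from it. It measured 5.64, 5.47 and 5.67 with oligo 2, against 5.92, 5.87 and 5.95 with oligo 1, 5.76, 5.68 and 5.66 in sirEGFP cells and 5.84, 5.46 and 5.49 in Mock cells. The oligo 1 arrays were above all others and the oligo 2 arrays overlapped the controls, with a difference between the siRNAs of -0.32 (limma, adjusted p = 0.200). The annotated starts lie 1343 bases apart, and the windows before them are shown because both genes were lower on every oligo 2 array than on every oligo 1 array. They are the plus strand of chrX:141475169-141475368 for Col4a5 and the minus strand of chrX:141474127-141474326 for Col4a6 (RefSeq, GRCm38.p6), with the CCAAT box in capitals.
Col4a5: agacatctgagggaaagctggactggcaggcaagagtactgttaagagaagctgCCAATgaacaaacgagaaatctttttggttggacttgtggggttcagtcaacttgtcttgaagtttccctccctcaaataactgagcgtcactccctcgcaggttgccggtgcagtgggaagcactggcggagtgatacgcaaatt
Col4a6: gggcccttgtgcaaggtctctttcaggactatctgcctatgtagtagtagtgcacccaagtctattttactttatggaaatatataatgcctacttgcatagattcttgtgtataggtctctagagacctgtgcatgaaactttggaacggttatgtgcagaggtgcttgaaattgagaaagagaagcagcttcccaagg
Col4a5 held 1 CCAAT box, and Col4a6 held neither a CCAAT box nor a GC box.

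Across all collagens, the oligo 2 arrays lay below the oligo 1 arrays for 7 of 44 genes, where this held for 9.14% of all genes. These were Col17a1, Col3a1, Col4a1, Col4a5, Col4a6, Col5a2 and Col8a2. The opposite arrangement held for 0 collagens, where 9.19% of all genes had it. No collagen had its 3 oligo 2 arrays above the other 9, where 3.32% of all genes did, or its 3 oligo 1 arrays below the other 9, where 2.02% did. The median collagen difference was -0.091, where the median over all genes was -0.030. The average collagen level also moved with single arrays, as given below, and their part in this difference was not tested. In the unadjusted limma test 0 members were higher and 3 lower at p under 0.05, where 7.69% of all genes were higher and 6.75% lower.

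**Figure D3:**
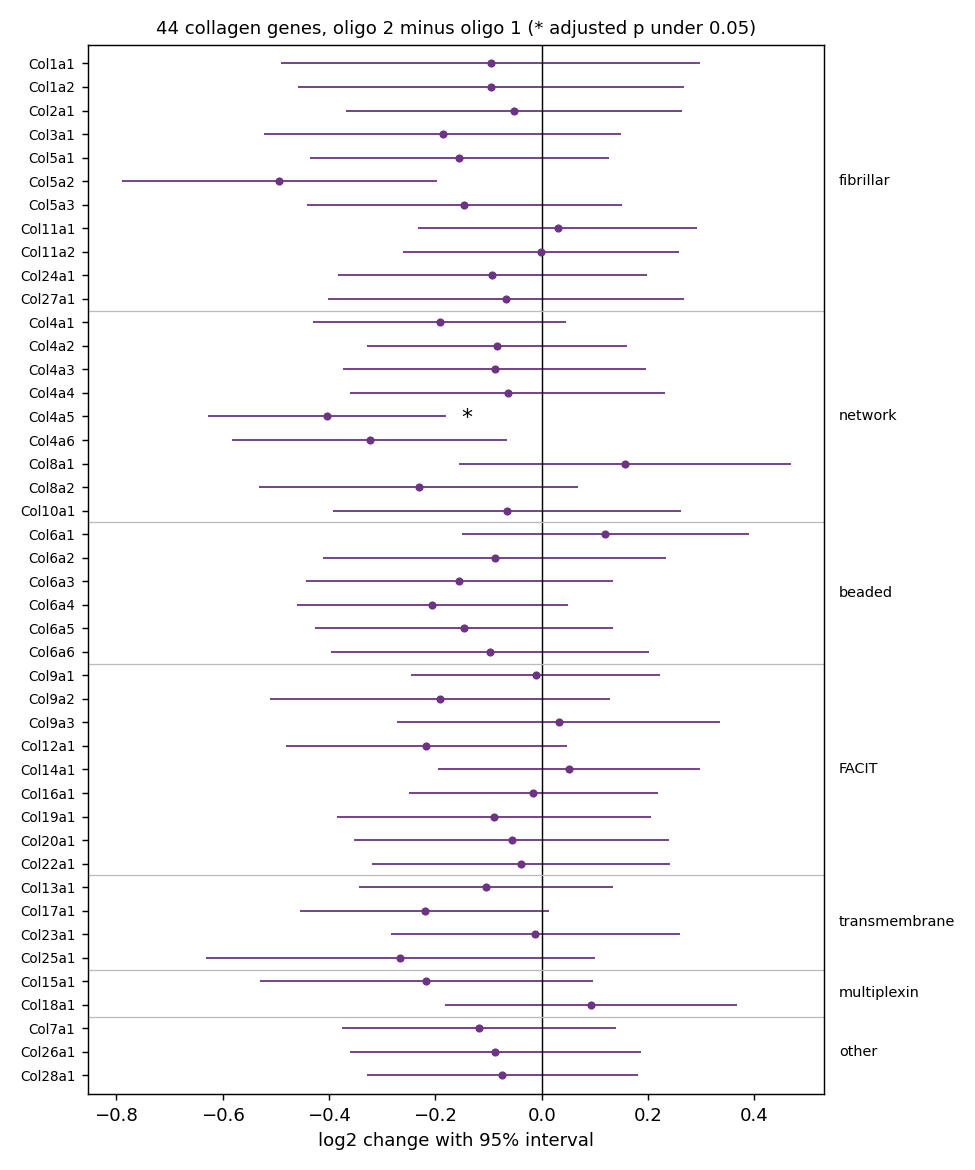
Difference in log2 expression between oligo 2 and oligo 1 (x axis, oligo 2 minus oligo 1) for the 44 collagen genes (y axis, by class), as points with 95% intervals from limma. Col4a5 at -0.40 carries the asterisk for an adjusted p under 0.05, and Col5a2 lies lowest at -0.49.

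FACIT collagens decorate the surface of fibrils and link them to other matrix. In limma's test 0 of the 9 were called with either siRNA against sirEGFP, and 0 had an unadjusted p under 0.05. All of their 95% intervals lay within 1.5-fold with oligo 1 and with oligo 2. Col9a3, a chain of the cartilage collagen type IX, had the lowest p of the class for the mean of both siRNAs against sirEGFP. It measured 6.38, 6.27 and 6.01 with oligo 1 and 6.02, 6.43 and 6.30 with oligo 2, against 5.98, 6.05 and 6.11 in sirEGFP cells and 5.77, 6.16 and 5.94 in Mock cells. The groups overlapped, and the mean difference from sirEGFP was 0.19 (limma, adjusted p = 0.595). Over the class the mean differences ran between -0.15 and 0.19.

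The transmembrane collagens, which stay anchored in the plasma membrane, and the multiplexins Col15a1 and Col18a1, whose fragments include endostatin, had 0 calls against sirEGFP in limma's test, and 0 members passed without adjustment. The mean differences of the 4 transmembrane genes ran between -0.0012 and 0.13, and those of both multiplexins between -0.055 and 0.026. Col7a1, the anchoring-fibril collagen, Col26a1 and Col28a1 differed by between -0.089 and 0.12.

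By class, the median differences over both siRNAs against sirEGFP were 0.020 for fibrillar, 0.014 for network, 0.091 for beaded and 0.0050 for FACIT collagens. With oligo 1 they were 0.093, 0.12, 0.15 and 0.11 in the same order. With oligo 2 they were -0.034, -0.033, 0.017 and -0.0077. Of the beaded class, Col6a3 was the one called member of 6 with oligo 1 and with the mean of both siRNAs.

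The level of the whole family also moved with single arrays. Relative to each gene's mean over the 12 arrays, the collagens averaged 0.15, 0.098 and 0.024 on the oligo 1 arrays, -0.066, 0.054 and -0.039 on the oligo 2 arrays, -0.085, -0.021 and 0.048 on the sirEGFP arrays and -0.053, 0.0040 and -0.12 on the Mock arrays. Array 1 of oligo 1 was the highest of its group for 21 collagens, array 2 of oligo 2 for 29. Array 3 of sirEGFP was the highest of its group for 21 and array 2 of Mock for 27. In the same order, these arrays were the highest for 40.1%, 39.2%, 34.2% and 42.1% of all genes. Whether the collagen counts exceeded these shares was not tested. The array with the highest collagen mean, array 1 of oligo 1, was also 1 of the 3 extreme arrays, and its part in the oligo 1 values was not tested beyond the comparison without it.

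**Figure D4:**
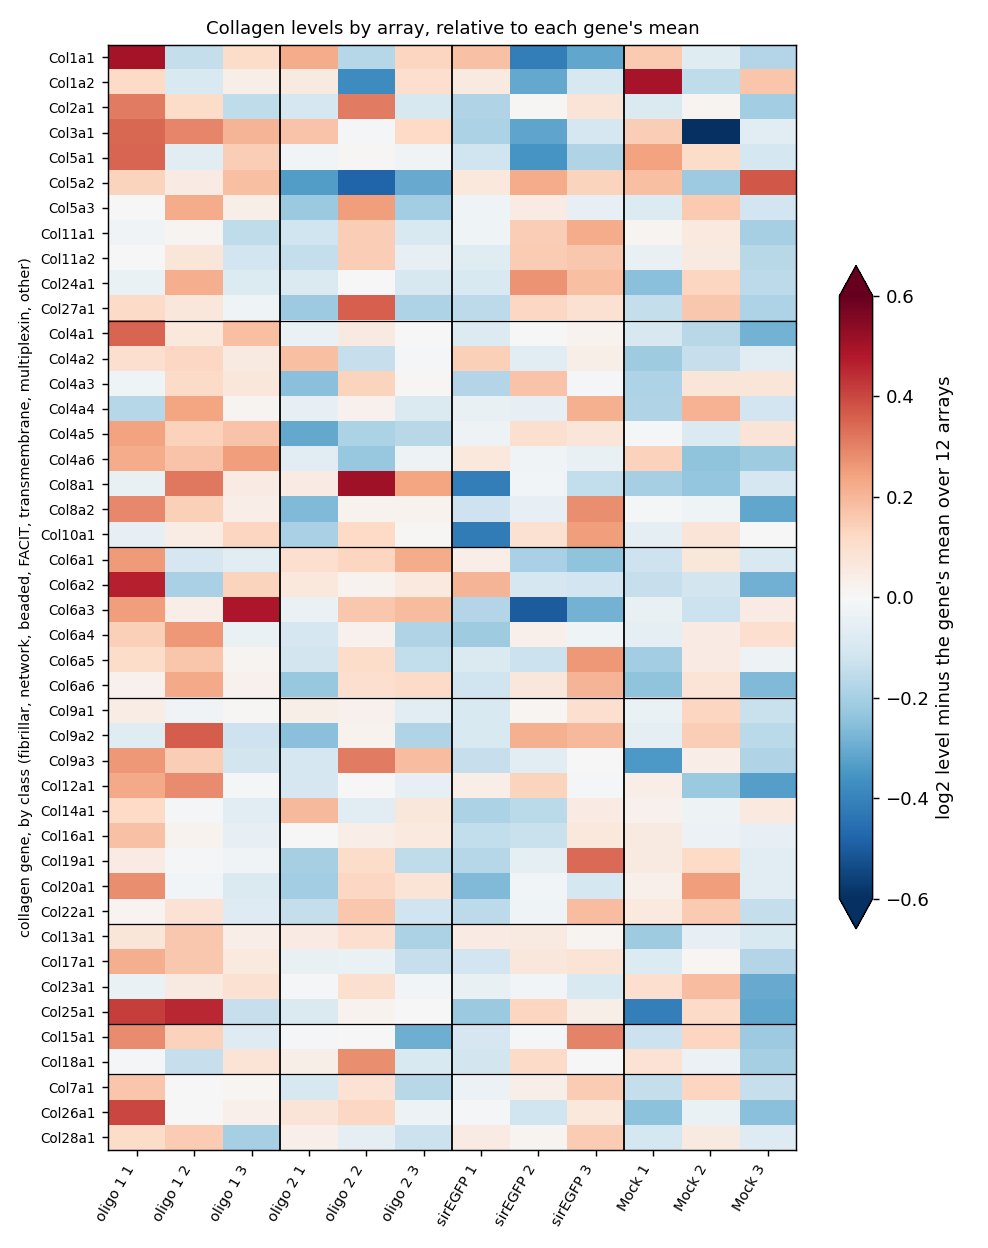
Log2 level of the 44 collagen genes (rows, by class) on the 12 arrays (columns, by group), with colour for the level minus the gene's mean over the arrays. The average over the genes is highest on array 1 of oligo 1, at 0.15, and lowest on array 3 of Mock, at -0.12.

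The control groups were also compared with each other. With sirEGFP against Mock 0 of 44 were called in limma's test, where 0% of all genes were, and the unadjusted test gave 0 higher and 1 lower member at p under 0.05, where 3.84% of all genes were higher and 2.42% lower. Col5a1 had the largest difference, -0.30 (limma, adjusted p = 0.781), followed by Col1a2 at -0.29 and Col6a3 at -0.28.

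A list of genes that process, secrete, cross-link and bind collagen was examined beside the family. Of 61 genes on it 57 were measured. With oligo 1 against sirEGFP 2 rose and 0 fell in limma's test, with oligo 2 1 rose and 1 fell, and with the mean of both siRNAs 2 rose and 1 fell. The shares of all genes called in these comparisons were 2.47%, 2.26% and 1.93%. The median difference from sirEGFP for the list was 0.20 with oligo 1, 0.086 with oligo 2 and 0.16 for the mean. The median over all genes was 0.022, -0.0077 and 0.0077. Against Mock the list median was smaller, at 0.13 with oligo 1 and 0.038 with oligo 2. The median over all genes was then 0.043 and 0.0082.

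Pepd encodes prolidase, which releases proline from the dipeptides left by collagen breakdown. It measured 7.995, 6.87 and 7.46 with oligo 1 and 7.53, 6.81 and 7.08 with oligo 2, against 6.43, 6.42 and 6.26 in sirEGFP cells and 7.07, 7.62 and 7.26 in Mock cells. The sirEGFP arrays were below all others, and the knockdown and Mock arrays overlapped. Against sirEGFP the mean rose by 0.92 ± 0.21 (limma, adjusted p = 0.0360). Against Mock the differences were 0.12 with oligo 1 and -0.18 with oligo 2, and the sirEGFP value itself differed from Mock by -0.95 (limma, adjusted p = 0.647). The rise against sirEGFP missed the threshold without Mock array 3, any 1 sirEGFP array, array 3 of oligo 1 or array 1 or 3 of oligo 2, with differences of 0.82 to 0.95 and limma adjusted p between 0.0553 and 0.179.

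Sec23a encodes a subunit of the coat of the vesicles that leave the endoplasmic reticulum, which procollagen needs for its export. It measured 7.02, 6.74 and 6.87 with oligo 2, against 7.88, 7.65 and 7.87 with oligo 1, 7.79, 8.11 and 7.76 in sirEGFP cells and 7.42, 7.68 and 7.66 in Mock cells. The oligo 2 arrays lay below all 9 others, and the oligo 1 arrays overlapped both controls. With oligo 2 Sec23a fell by 1.004 on the log2 scale (limma, adjusted p = 0.000877), and the mean of both siRNAs fell by 0.54 (limma, adjusted p = 0.0264). The mean change missed the threshold without the 3 extreme arrays (limma, adjusted p = 0.0551), and also without array 2 or 3 of sirEGFP or array 2 or 3 of oligo 2, with -0.43 to -0.61 and limma adjusted p between 0.0564 and 0.207.

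Of the proteoglycans that coat fibrils, Ogn (osteoglycin) measured 6.44, 7.17 and 6.91 with oligo 1 and 5.95, 5.92 and 6.22 with oligo 2, against 5.88, 5.83 and 5.77 in sirEGFP cells and 6.03, 5.70 and 5.97 in Mock cells. The oligo 1 arrays lay above all others, and Ogn rose by 1.01 with oligo 1 (limma, adjusted p = 0.00448) and by 0.60 over both siRNAs (limma, adjusted p = 0.0425). Bgn (biglycan) measured 11.32, 11.24 and 11.26 with oligo 2, against 10.57, 9.72 and 10.54 with oligo 1, 10.64, 10.32 and 10.06 in sirEGFP cells and 10.92, 10.87 and 10.87 in Mock cells. The oligo 2 arrays lay above all others, and Bgn rose by 0.94 with oligo 2 against sirEGFP (limma, adjusted p = 0.0190). That rise missed the threshold without array 2 or 3 of sirEGFP or any 1 oligo 2 array (0.80 to 0.95, limma adjusted p between 0.0630 and 0.108). The rise of Ogn over both siRNAs missed it without any 1 Mock, sirEGFP or oligo 2 array or array 3 of oligo 1 (0.56 to 0.63, limma adjusted p between 0.0505 and 0.202), while that with oligo 1 passed without any single array.

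The enzymes that hydroxylate, trim and cross-link collagen did not pass over both siRNAs. The prolyl hydroxylase subunits P4ha3 and P4ha2 had mean differences of 0.77 (limma, adjusted p = 0.172) and 0.58 (limma, adjusted p = 0.258). Lox, the lysyl oxidase that starts cross-linking, differed by 0.18 (limma, adjusted p = 0.499) and Loxl3 by 0.48 (limma, adjusted p = 0.208). Pcolce, an enhancer of propeptide cleavage, differed by 0.63 (limma, adjusted p = 0.315). Among the receptors, Ddr2, a collagen-binding receptor kinase, differed by 0.33 (limma, adjusted p = 0.357) and Itga1 by 0.22 (limma, adjusted p = 0.395). All these differences are from sirEGFP, and every gene named in this paragraph had a lower mean in sirEGFP cells than in Mock cells. For P4ha3 these means were 7.06 and 7.72.

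**Figure D5:**
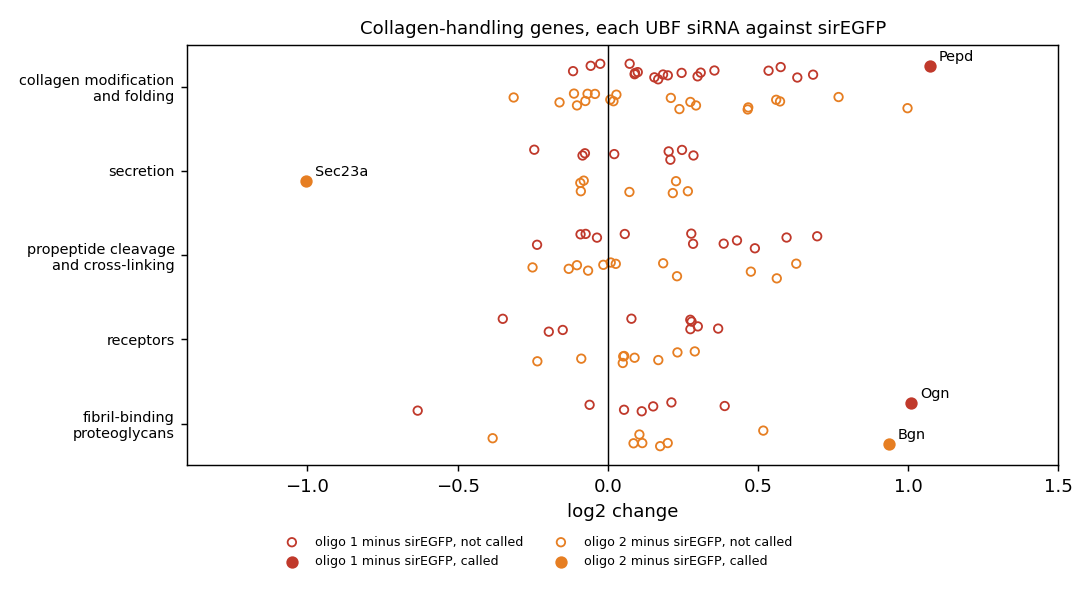
Change in log2 expression (x axis) of 57 collagen-handling genes, in rows by function, with each UBF siRNA against sirEGFP, as 1 point per gene, filled where the adjusted p was under 0.05. The lowest point is Sec23a with oligo 2 at -1.004, and the highest is Pepd with oligo 1 at 1.07.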

How the data were processed

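Total RNA (100 ng) of 12 samples was hybridised to Affymetrix arrays. The deposited values are log2 expression per probe set, already summarised and normalized by the authors. Per the submitters' processing notes limma was used, but no step or version is named. How the values were summarised and normalized is not given in the sources used here. Medians of the 12 arrays ran between 5.38 and 5.54. No count or depth exists for arrays, and their number limits the precision.

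Probe sets were named from the platform annotation. Of 35512 probe sets 21789 had 1 symbol, 1621 several and 12102 none, and 21698 of the probe sets with 1 symbol were matched through Entrez IDs to RefSeq GRCm38.p6, whose symbol was used. For 999 genes with several probe sets, the brightest on average over the 12 arrays was kept. All 4 groups were fitted together, with no filter, in limma 3.58.1 under R 4.3.3 (lmFit, eBayes, 8 residual degrees of freedom), with Benjamini-Hochberg adjustment over 19938 genes and an adjusted p under 0.05 as threshold. An exact permutation test compared 6 knockdown with 6 control arrays for Ubtf and for each of the 44 collagens, without adjustment. Scripts were tested on simulated data. Promoters were scanned in Python 3.11.15.

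Genes given in full were, by rule, the called members, the member with the lowest p in each main class for the mean of both siRNAs, Col1a1, Col1a2 and Col3a1, and up to 4 genes of each pathway group, called ones first, then by p. Col4a1, Col4a6, Col5a1, Col5a2, Col6a1 and Col6a2, and Loxl4, were added after their values were seen. Members and lists were chosen with earlier results of these data known. Groups share replicate numbers in the labels. Deviations of same-numbered arrays correlated at 0.548, 0.240 and 0.182 for oligo 2 with sirEGFP and at 0.388, 0.294 and 0.115 for oligo 2 with oligo 1. The counts, intervals, class medians and figures nevertheless come from the fit without a block, except where the block is named. The result with the block is given beside it where it changes a call. For oligo 1 with sirEGFP they correlated at 0.551, 0.294 and -0.0805. Alternatives were the replicate block, median centring, quantile normalization, array weights, a filter on the dimmest 25% of genes, the mean of all probe sets of a gene, each array left out in turn, and the 3 extreme arrays left out together. A fit on the compared groups alone and one against the mean of Mock and sirEGFP were chosen after seeing the data.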

Additional observations from a re-analysis of the deposited data

Results flagged for a closer look

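The difference between the siRNAs was itself tested, as oligo 2 minus oligo 1 in the limma fit, and passed at an adjusted p under 0.05 for 1 of 44 collagens and 5 of 57 collagen-handling genes, where 3.67% of all genes were called. Col4a5 was lower with oligo 2 by a log2 difference of -0.4041 (limma, adjusted p = 0.0453), as described above. Sec23a, the export-coat subunit, was lower, with a difference of -0.9206 (limma, adjusted p = 0.00140), and so was Ogn, with -0.8099 (limma, adjusted p = 0.0119). Bgn was higher with oligo 2 by 0.9968 (limma, adjusted p = 0.00960).

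Both cross-linking enzymes that differed were lower with oligo 2. Lox measured 11.08, 11.01 and 11.19 with oligo 2 against 11.79, 11.51 and 11.46 with oligo 1, a difference of -0.4959 (limma, adjusted p = 0.0289). Loxl4, a lysyl oxidase homologue named after its values were seen, measured 9.32, 9.65 and 9.62 with oligo 2 against 9.97, 10.52 and 10.27 with oligo 1, a difference of -0.7254 (limma, adjusted p = 0.0205). For each of these genes the oligo 2 arrays and the oligo 1 arrays did not overlap, where 9.19% of all genes had the oligo 2 arrays higher and 9.14% had them lower. Bgn and Sec23a passed under every alternative run. Without the 3 extreme arrays Lox (-0.37, limma adjusted p = 0.377) and Loxl4 (-0.74, limma adjusted p = 0.109) did not pass, and Ogn did (-0.88, limma adjusted p = 0.0380). With single arrays left out, Ogn missed the threshold without array 3 of oligo 1 or array 1 or 2 of oligo 2 (-0.76 to -0.78, limma adjusted p between 0.0512 and 0.0605). Lox missed it without array 1 of oligo 1 or any 1 oligo 2 array (-0.40 to -0.54, limma adjusted p between 0.0605 and 0.112). Loxl4 missed it without array 2 or 3 of oligo 1 or array 1 or 3 of oligo 2 (-0.59 to -0.77, limma adjusted p between 0.0577 and 0.103).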

How the results depend on the processing

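Counts of called collagens were small and moved with the processing. With the replicate number as a block, 2 were called with oligo 2 against sirEGFP (0 without it), 2 with oligo 2 against Mock (0 without it) and 2 between oligo 2 and oligo 1 (1 without it), and no other count changed. Against each control these 2 were Col5a2 and Col8a1. For oligo 1 against sirEGFP (1 called) median centring gave 0, array weights 5, the compared groups alone 0 and the mean of Mock and sirEGFP as control 0. For oligo 2 against sirEGFP quantile normalization gave 1, array weights 2, leaving out the 3 extreme arrays 1 and the mean of both controls 1. For the mean of both siRNAs (1 called) array weights gave 3 and the compared groups alone 0. Against Mock array weights gave 3 for oligo 1 and 2 for oligo 2. Between the siRNAs (1 called) median centring, quantile normalization, leaving out the 3 extreme arrays and the compared groups alone each gave 0, and array weights 4. Leaving out single arrays gave 0 to 2 for oligo 1, 0 to 1 for oligo 2 and 0 to 1 for their mean against sirEGFP, 0 to 1 for oligo 2 against Mock and 0 to 1 between the siRNAs. The comparison of sirEGFP with Mock gave 0 throughout. The causes were not tested.

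The class medians against sirEGFP moved as follows. With array weights they were 0.0022 (oligo 1), -0.11 (oligo 2) and -0.057 (mean) for fibrillar, 0.075 for beaded with oligo 1 and -0.022 for FACIT with oligo 1. Without the 3 extreme arrays they were 0.0022 (oligo 1) and -0.099 (mean) for fibrillar, -0.12 (oligo 2) and -0.067 (mean) for network, 0.057 for beaded with oligo 1 and -0.068 for FACIT with oligo 1. With the mean of both controls they were 0.083 for network (mean) and 0.089 for beaded with oligo 2. Single arrays left out gave fibrillar medians of 0.011 to 0.12 with oligo 1, -0.18 to 0.029 with oligo 2 and -0.057 to 0.060 for the mean, network medians of 0.097 to 0.20 with oligo 1, -0.12 to 0.010 with oligo 2 and -0.073 to 0.054 for the mean, and beaded medians of 0.075 to 0.18 with oligo 1. The mean difference of Col1a2 turned to -0.0038 without array 2 of sirEGFP and to -0.052 with the mean of both controls. Of the recomputed counts, 95 of 143 equalled the main count or lay within 1.5-fold of it, whichever genes made it up. Of the other recomputed values, 230 of 252 class medians and 394 of 496 single-gene values stayed on their side of the threshold or within the spread between replicates. The filter on dim genes and the mean of all probe sets changed no count. The deposited values carry no detection call, so that signal over background could not be judged for any member. Col12a1 and Col28a1 were the dimmest, and others also lay below the median of all genes.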

Other observations

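Markers of the cell types that make collagen were read beside the family. Prrx1, a transcription factor of mesenchymal cells, measured 10.89, 10.62 and 10.66 with oligo 2, against 9.62, 9.74 and 9.41 in sirEGFP cells, and rose by 1.13 (limma, adjusted p = 0.000272). Pdgfra and Pdgfrb, the receptors for platelet-derived growth factor on fibroblasts, rose with oligo 2 by 0.91 (limma, adjusted p = 0.0119) and 1.75 (limma, adjusted p = 0.0126). With oligo 1 the same 3 genes differed from sirEGFP by 0.35, 0.096 and 0.43, with limma adjusted p of 0.236, 0.893 and 0.689. Of the 9 fibroblast markers 3 rose with oligo 2 against sirEGFP and 0 fell, where 2.26% of all genes were called. With Mock as control 2 of the 9 rose with oligo 2 and 0 fell, where 4.25% of all genes were called. Pdgfrb averaged 6.16 in sirEGFP cells and 7.003 in Mock cells, against 6.59 with oligo 1 and 7.91 with oligo 2. Its oligo 1 mean thus lay below the Mock mean, and the size of its rise with oligo 2 depended on the control. The sirEGFP and Mock means were 9.59 and 9.81 for Prrx1 and 7.89 and 7.90 for Pdgfra. Oligo 2 exceeded oligo 1 at Prrx1 by 0.78 (limma, adjusted p = 0.00402), at Pdgfra by 0.81 (limma, adjusted p = 0.0160) and at Pdgfrb by 1.33 (limma, adjusted p = 0.0418). The fibroblast surface protein Thy1 went the other way, at 8.88, 8.60 and 8.48 with oligo 2 against 9.51, 9.20 and 9.26 with oligo 1, a difference of -0.67 (limma, adjusted p = 0.0305). The part of these markers in the collagen values was not tested.

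Of 5 macrophage markers Csf1r, the receptor for a macrophage growth factor, measured 5.90, 5.71 and 5.56 with oligo 1 against 5.03, 4.75 and 4.90 in sirEGFP cells, a rise of 0.83 (limma, adjusted p = 0.00874). It was lower with oligo 2 than with oligo 1, with a difference of -0.80 (limma, adjusted p = 0.00807), and 4 of the 5 markers lay below the median of all genes. Cd68, on the same list, went the other way between the siRNAs, with means of 6.43 with oligo 1 and 7.01 with oligo 2. The median difference of the list with oligo 1 against sirEGFP was -0.0099. Of 5 osteoblast markers Phex, an endopeptidase of bone cells, measured 4.77, 5.23 and 5.20 with oligo 1 against 5.69, 5.67 and 5.70 in sirEGFP cells and fell by 0.62 (limma, adjusted p = 0.0398). Of 5 endothelial markers Cdh5, the cadherin of endothelial junctions, measured 6.29, 6.07 and 6.20 with oligo 2 against 5.71, 4.94 and 5.01 with oligo 1, a difference of 0.96 (limma, adjusted p = 0.0176). Against sirEGFP it differed by 0.59 with oligo 2 (limma, adjusted p = 0.199). Csf1r and Phex were each the 1 marker of their list called with oligo 1 against sirEGFP, where 2.47% of all genes were. Between the siRNAs Csf1r and Cdh5 were, where 3.67% of all genes were. Of 6 myofibroblast markers 0 were called with either siRNA against sirEGFP, and their median difference was -0.075 with oligo 1 and 0.021 with oligo 2. The smooth-muscle actin Acta2 differed by 0.92 with oligo 1 (limma, adjusted p = 0.221) and 0.019 with oligo 2 (limma, adjusted p = 0.991). Actg2 also had a higher mean with oligo 1 than in sirEGFP cells, while Tagln, Cnn1, Myl9 and Myh11 had lower ones.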
